A study of Mus musculus with 2 samples.

Results

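The genes of cAMP signalling that lie between the membrane receptors and the target genes were described in brown preadipocytes (D0) and in brown adipocytes (D7). They were taken by symbol: the adenylyl cyclases (Adcy), the phosphodiesterases (Pde), the catalytic and regulatory subunits of protein kinase A (Prkac, Prkar), the inhibitors of that kinase (Pki), the A-kinase anchoring proteins (Akap), the CREB factors and their CRTC coactivators, and the cAMP-activated exchange factors Rapgef3 and Rapgef4. The rule used symbols and no measured value, and it found 74 of the 23361 genes with values. Because it works on symbols, it also took in 5 phosphodiesterases of cGMP, 4 genes that carry a Pde symbol without coding for such an enzyme (Pde4dip, Pde6d, Pde6g and Pde6h), and 5 membrane-bound factors of the CREB3 family.

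The study sequenced the transcriptome before and after differentiation of primary brown preadipocytes, to follow gene expression during adipogenesis. Both libraries came from cells of the interscapular brown fat of newborn C57BL/6 mice. The labels give no genotype or transgene, while the study's methods describe the cells as immortalized with large T antigen, and neither says how cells of different animals were combined. The D0 library is of preadipocytes, which had been plated 4 days earlier in medium with insulin (0.1 μM) and the thyroid hormone T3 (1 nM). For the D7 library, the cells had received IBMX (0.5 mM), the glucocorticoid dexamethasone (2 μg/ml) and the cyclooxygenase inhibitor indomethacin (0.125 mM) from day 0 for 2 days, and then the insulin and T3 medium alone. IBMX (3-isobutyl-1-methylxanthine) inhibits most phosphodiesterases of cyclic nucleotides, with the PDE8 and PDE9 enzymes as known exceptions. The labels do not say whether D0 cells were harvested just before the inducers were added. These doses are those of the labels, and the methods of the study give lower ones of insulin and dexamethasone. By the labels the D7 cells were no longer in IBMX, while the wording of the methods leaves this less clear.

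In a brown adipocyte, noradrenaline acts on β-adrenergic receptors, the G protein Gs activates adenylyl cyclase, and the cAMP formed releases the catalytic subunits of protein kinase A (PKA) from their regulatory subunits. PKA then phosphorylates the proteins that guard the lipid droplet and the CREB factors that switch on thermogenic genes. Phosphodiesterases end the signal by hydrolysing cAMP, insulin lowers cAMP in adipocytes through PDE3B, and anchoring proteins hold PKA at particular membranes or organelles.

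The values are FPKM (fragments per length of transcript and per size of the library), 1 value per gene and library, so levels of different genes can be compared per length. With 1 library per stage there is no replicate, no test and no p-value, and the spread between cultures is not known. A gene is said here to rise or fall where the ratio of D7 to D0 was at least 2.0 or at most 0.5 and its 95% interval excluded 1. These intervals rest on the number of sequenced fragments recovered from the FPKM steps, out of 21471824 fragments at D0 and 18253221 at D7. They cover counting error only and compare these libraries, not the stages. RNA was taken from whole cultures, so fewer cells of a type and less RNA per cell cannot be told apart.

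The labels were checked against marker genes. For comparison, 15.5% of all genes rose and 11.4% fell. All 12 adipocyte markers rose, from a summed 86.1 FPKM at D0 to 20858 FPKM at D7. Of 12 brown adipocyte markers, 5 rose and 3 more (Ucp1, Cidea and Elovl3) were listed at 0 at D0 and above 0 at D7. Of 12 preadipocyte and fibroblast markers 4 fell and 2 (Dlk1 and Cd34) rose, and 9 of 10 proliferation markers fell. Markers of other cells moved as well: 12 of 13 macrophage markers rose, from a summed 156 to 586 FPKM with none of the 13 listed at 0 in either library, and mural and smooth muscle markers fell from a summed 4021 to 698 FPKM, with 4 of 10 lower and 2 higher. Endothelial markers summed to 1.73 FPKM at D0 and 2.75 FPKM at D7, and skeletal muscle markers to 51.7 and 4.99 FPKM. Of the neural and Schwann cell markers, 5 were higher and 2 lower, with sums of 110 and 40.1 FPKM. The part of these cells in the values of the cAMP genes was not tested.

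Of the 74 genes, 68 were above 0 in both libraries. Among these, 12 were past 2.0-fold higher at D7, or 17.6%, beside 18.5% of all genes by the same rule, and 11 were lower, or 16.2%, beside 13.2% of all genes. The other 45 lay within 2.0-fold. Under a scaling of each library to its own median, with values under 0.01 FPKM set to 0.01, 10 were higher and 16 lower, where Adcy10 and Pde6h, each listed at 0 in a library, count through the value of 0.01. The median log2 ratio was −0.04, and it was 0.02 over all genes. As a list, then, the cAMP genes moved about as often as other genes did. With the interval required to exclude 1, 9 rose and 9 fell, where the same rule called 15.5% of all genes higher and 11.4% lower. The 3 genes that drop from the higher set (Pkib, Pde6a and Pde6g) had at most 3 fragments in each library, and those that drop from the lower set were Rapgef4, with 7 and 1 fragments, and Pde9a, with 8 and 2. Among the 55 genes with at least 1 FPKM in a library, 8 were higher and 8 lower, and the background was then 15.6% and 11.9%. In either direction it was 31.7% of all genes, and 27.6% of those with at least 1 FPKM in a library.

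**Figure D1:**
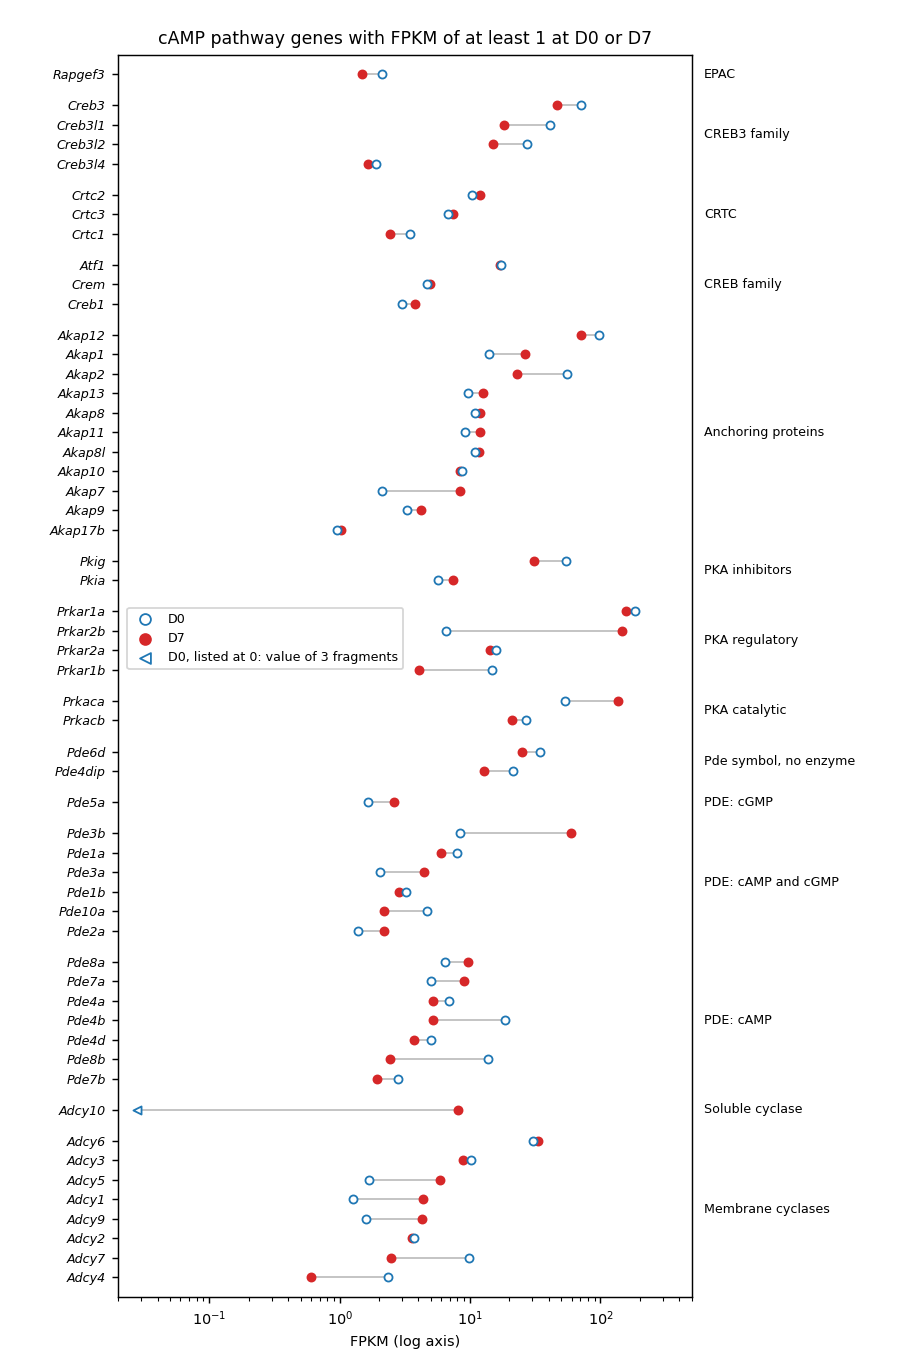
FPKM on a log axis of the 55 cAMP pathway genes with at least 1 FPKM in a library, grouped by role, with an open circle for D0 and a filled circle for D7 (1 library each, no error bars). The longest lines between genes above 0 in both libraries are those of Prkar2b, from 6.48 to 147 FPKM, and Pde3b, from 8.33 to 59.2 FPKM. Adcy10, listed at 0 at D0, is drawn at the value of 3 fragments.

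The regulatory subunits of PKA showed the widest movement of all 68 ratios. Prkar2b codes for RIIβ, the regulatory subunit known as the main one of adipose tissue. It rose from 6.48 FPKM at D0 to 147 FPKM at D7, a ratio of 22.7 (95% interval 20.7 to 25.1, from 445 and 8588 fragments). In the order of levels among the 74 genes it moved from place 31 to place 2.

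Prkar1a codes for the widely expressed RIα and held place 1 in both libraries. Its level was 183 FPKM at D0 and 157 FPKM at D7, a ratio of 0.858 (0.835 to 0.882). Prkar2a, for RIIα, stood at 15.8 and 14.2 FPKM, a ratio of 0.896 (0.831 to 0.965). Prkar1b codes for RIβ, best known from neurons. It fell from 14.7 to 4.04 FPKM, a ratio of 0.275 (0.233 to 0.324).

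The shares within the class do not depend on how the libraries are scaled to each other. Prkar2b made up 2.95% ± 0.138 (counting SE) of the summed FPKM of the regulatory subunits at D0 and 45.7% ± 0.362 at D7. Prkar1a went from 83.1% to 48.6%. Type II subunits together went from 10.2% of regulatory transcripts to 50.1%, so that types I and II were near parity at D7. The ratio of Prkar2b to Prkar1a was 0.0355 at D0 and 0.940 at D7.

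Of the catalytic subunits, Prkaca (Cα) rose and Prkacb (Cβ) did not pass the threshold. Prkaca was at 53.7 FPKM at D0 and 136 FPKM at D7, a ratio of 2.53 (2.41 to 2.65). Prkacb was at 26.6 and 21.0 FPKM, a ratio of 0.787 (0.738 to 0.839). Prkaca accounted for 66.9% ± 0.639 (counting SE) of catalytic transcripts at D0 and 86.6% ± 0.332 at D7, and exceeded Prkacb 2.02-fold and 6.48-fold. Under the scaling to the library median the ratio of Prkaca came to 1.98, just short of the threshold, while that of Prkar2b was 17.8.

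The PKA inhibitors bind free catalytic subunits and keep them inactive. Pkig stood at 54.8 FPKM at D0 and 31.0 FPKM at D7, a ratio of 0.566 (0.495 to 0.647), and Pkia at 5.64 and 7.40 FPKM, a ratio of 1.31 (1.15 to 1.50). Neither passed 2.0-fold, although Pkig did under the scaling to the library median with a ratio of 0.443, and Pkib was near the detection limit in both libraries. Summed over each class, catalytic subunits went from 80.3 to 157 FPKM, regulatory subunits from 220 to 322 FPKM and inhibitors from 60.5 to 38.5 FPKM. Regulatory transcripts per catalytic transcript were therefore 2.73 at D0 and 2.06 at D7, and inhibitor transcripts per catalytic transcript 0.752 and 0.246. These are ratios of transcripts and say nothing of the proteins.

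**Figure D2:**
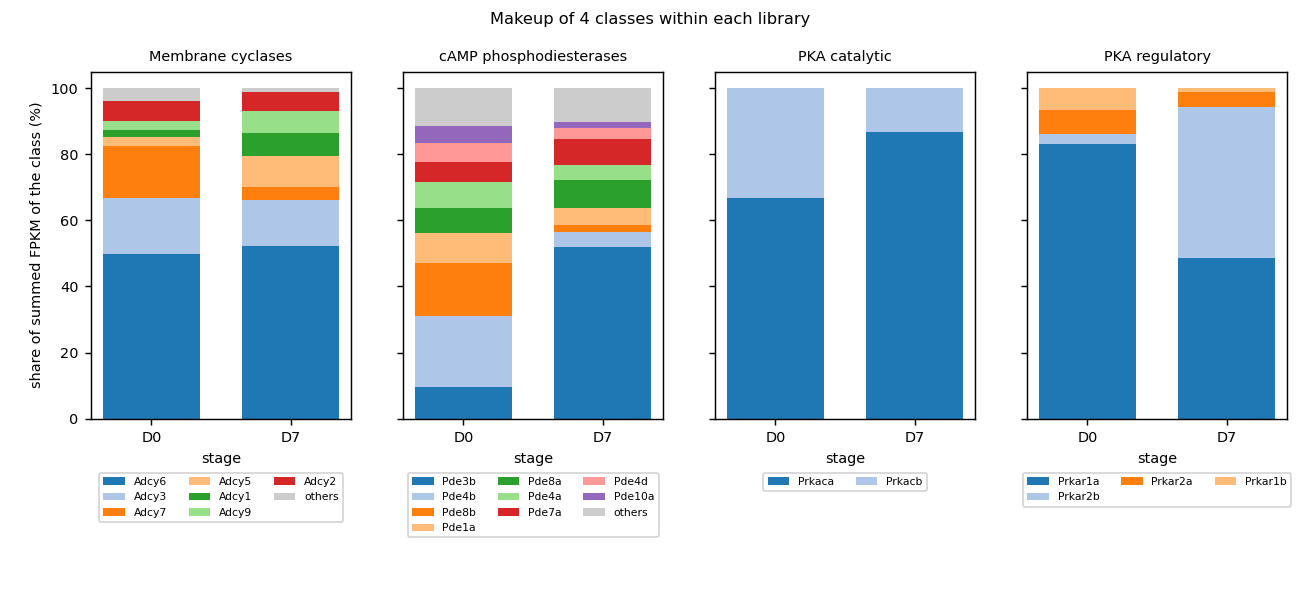
Share of the summed FPKM of each class (%, stacked to 100 within a library) at D0 and D7 for membrane adenylyl cyclases, phosphodiesterases that hydrolyse cAMP, and catalytic and regulatory subunits of PKA. Adcy6 holds 49.9% and 52.2% of the cyclases, while Pde3b goes from 9.67% to 51.8%, Prkaca from 66.9% to 86.6% and Prkar2b from 2.95% to 45.7% of their classes.

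CREB factors act through the cAMP response element (CRE), the palindrome TGACGTCA, or its shorter form TGACG. Both were searched on either strand in windows from 250 bases before to 50 after each transcript start (RefSeq, GRCm38.p6), which were given for 59 of the 74 genes. The palindrome lay in 3 of 109 windows of these genes (2.75%) and in 1.79% of all 32851 windows. The 3 were 1 window of Creb5 and a pair of overlapping windows of Prkar1a. The shorter form lay in 26 of the 109 windows (23.9%) and in 20.8% of all, and every palindrome also counts there. Stretches before the starts of the most abundant regulatory subunit and of the PKA genes that rose are shown 5′ to 3′ on the gene's strand. The shorter form (TGACG, or CGTCA where it lies on the other strand) is in capitals. The stretches differ in length and place, so their numbers of matches are not comparable. The 30 bases of Prkar1a, at chr11:109650889-109650918 (+), lie 60 to 31 bases before a transcript start and inside the annotated gene. The 150 bases of Prkaca are chr8:83972828-83972977 (+) and those of Prkar2b are chr12:32061298-32061447 (−).
Prkar1a: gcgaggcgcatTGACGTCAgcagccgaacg
Prkaca: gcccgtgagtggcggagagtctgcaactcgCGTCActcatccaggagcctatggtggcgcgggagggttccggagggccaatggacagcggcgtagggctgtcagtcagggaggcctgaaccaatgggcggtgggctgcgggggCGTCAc
Prkar2b: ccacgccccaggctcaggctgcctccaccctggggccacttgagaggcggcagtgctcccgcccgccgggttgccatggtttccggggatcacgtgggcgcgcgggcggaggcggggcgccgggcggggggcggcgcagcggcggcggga
Prkar1a carries the whole palindrome, around which its stretch was cut. The stretch of Prkaca holds the shorter form at 2 places and the letters CCAAT at 2, and that of Prkar2b holds neither. The palindrome was found in none of the 11 windows of genes that were past 2.0-fold higher and in none of the 22 windows of genes that were lower. With the palindrome in 1.79% of all windows, so few windows cannot show a lack of it. The letters of the C/EBP motif TTGCNNAA lay in 9.17% of the windows of the cAMP genes and in 10.8% of all, and CCAAT in 36.7% and 37.4%. These matches are descriptions of letters and not of binding.

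Among the phosphodiesterases, a single gene of the PDE3 family came to stand above all others. Pde3b codes for the enzyme through which insulin opposes lipolysis. It rose from 8.33 FPKM at D0 to 59.2 FPKM at D7, a ratio of 7.10 (6.67 to 7.57, from 1144 and 6905 fragments). Its relative Pde3a, best known from heart and platelets, rose from 2.02 to 4.45 FPKM, a ratio of 2.20 (1.98 to 2.45). The call of Pde3a was the less firm, since its ratio was 1.72 under the scaling to the library median.

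The phosphodiesterases that fell were of several families. Pde8b, which codes for an enzyme with high affinity for cAMP that IBMX does not inhibit, fell from 13.8 to 2.41 FPKM, a ratio of 0.175 (0.148 to 0.204). Pde4b codes for a cAMP-specific enzyme well known from immune cells. It fell from 18.4 to 5.21 FPKM, a ratio of 0.283 (0.240 to 0.332), and it had been the most abundant phosphodiesterase gene at D0. Pde10a, best known from the striatum of the brain, fell from 4.63 to 2.20 FPKM, a ratio of 0.475 (0.415 to 0.543), which became 0.568 with a pseudocount of 1. Pde11a fell at a low level, from 0.227 to 0.0616 FPKM, a ratio of 0.272 (0.0796 to 0.746, from 20 and 5 fragments), and its ratio was 0.865 with a pseudocount of 1.

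The other phosphodiesterase genes of at least 1 FPKM stayed within 2.0-fold. Pde7a (4.98 and 9.05 FPKM, ratio 1.82) and Pde8a (6.47 and 9.70 FPKM, ratio 1.50) code for cAMP-specific enzymes. Pde2a, for an enzyme that cGMP stimulates, was at 1.37 and 2.17 FPKM, a ratio of 1.58, but it shares 3955 exonic bases on the same strand with the annotated gene Gm45837, and reads of the pair cannot be told apart. The intervals of these 3 ratios were 1.64 to 2.01, 1.33 to 1.69 and 1.24 to 2.02.

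Below 1 lay the PDE4 genes Pde4a and Pde4d and the genes Pde7b, Pde1a and Pde1b. Pde4a was at 6.92 FPKM at D0 and 5.22 FPKM at D7, a ratio of 0.754 (0.666 to 0.852), and Pde4d at 4.99 and 3.71 FPKM, a ratio of 0.743 (0.636 to 0.867). Pde7b was at 2.81 and 1.92 FPKM, a ratio of 0.682 (0.549 to 0.845). The PDE1 enzymes are activated by calcium and calmodulin. Pde1a was at 7.89 and 5.99 FPKM, a ratio of 0.759 (0.578 to 0.992), and Pde1b at 3.21 and 2.86 FPKM, a ratio of 0.893 (0.722 to 1.10). Pde1c and Pde4c were under 0.1 FPKM in both libraries.

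Of the 16 genes whose enzymes hydrolyse cAMP, 2 rose (12.5%, beside 15.5% of all genes) and 4 fell (25.0%, beside 11.4%). The summed level of the 16 went from 86.2 FPKM at D0 to 114 FPKM at D7. Within that sum, Pde3b went from 9.67% ± 0.291 (counting SE) to 51.8% ± 0.554. The PDE4 genes went from 35.2% ± 0.688 to 12.4% ± 0.411, the PDE1 genes from 12.9% to 7.79%, and the pair Pde8a and Pde8b, whose enzymes IBMX does not inhibit, from 23.5% to 10.6%. At D0 the sum was spread over more genes, with Pde4b at 21.4% and Pde8b at 16.0% in front. Pde3b stood at 0.453 times the level of Pde4b at D0 and at 11.4 times at D7.

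The phosphodiesterases specific for cGMP were low. Pde5a, the target of sildenafil, was at 1.65 FPKM at D0 and 2.63 FPKM at D7, a ratio of 1.59 (1.34 to 1.89). Pde9a was at 0.198 and 0.0582 FPKM, from 8 and 2 fragments. The photoreceptor genes Pde6a, Pde6b and Pde6c had at most 3 fragments in either library, and Pde6c was listed at 0 in both. Of the genes with a Pde symbol but no such enzyme, Pde6d, which codes for a carrier of prenylated proteins, was at 34.6 and 25.0 FPKM, a ratio of 0.721 (0.639 to 0.812). Pde4dip (myomegalin, of the centrosome and Golgi) was at 21.3 and 12.8 FPKM, a ratio of 0.599 (0.566 to 0.633). Pde6g had 1 and 2 fragments, and Pde6h was at 0.246 FPKM at D0 and listed at 0 at D7.

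The membrane adenylyl cyclases kept their sum and their leading gene while the order below it changed. The sum was 60.9 FPKM at D0 and 63.2 FPKM at D7. Adcy6, a cyclase that calcium inhibits, led in both libraries with 30.4 and 33.0 FPKM, a ratio of 1.08 (1.04 to 1.14), which is 49.9% ± 0.605 (counting SE) and 52.2% ± 0.629 of the sum.

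Of the 9 membrane cyclases, 4 rose (44.4%, beside 15.5% of all genes) and 2 fell (22.2%, beside 11.4%). Below Adcy6, 3 cyclases of at least 1 FPKM rose. Adcy5, the close relative of Adcy6, rose from 1.67 to 5.88 FPKM, a ratio of 3.52 (3.04 to 4.09). Adcy1, a calmodulin-stimulated cyclase best known from brain, rose from 1.26 to 4.37 FPKM, a ratio of 3.47 (3.06 to 3.95). Adcy9 rose from 1.58 to 4.29 FPKM, a ratio of 2.72 (2.23 to 3.32). Adcy8 was past the threshold at a trace level, 0.00958 and 0.101 FPKM from 1 and 13 fragments, a ratio of 10.6 with an interval of 1.59 to 450. That ratio was 1.84 with a pseudocount of 0.1 and 1.09 with a pseudocount of 1.

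Adcy7 and Adcy4 fell. Adcy7, abundant in blood cells, went from 9.75 to 2.48 FPKM, a ratio of 0.255 (0.222 to 0.291). Adcy4 went from 2.36 to 0.596 FPKM, a ratio of 0.253 (0.171 to 0.364). Adcy3 and Adcy2 stayed within 2.0-fold: Adcy3 was at 10.2 and 8.88 FPKM, a ratio of 0.871 (0.788 to 0.964), and Adcy2 at 3.68 and 3.60 FPKM, a ratio of 0.977 (0.827 to 1.15). As shares of the sum, Adcy7 went from 16.0% to 3.93%, while Adcy5 went from 2.74% to 9.31%, Adcy1 from 2.07% to 6.93% and Adcy9 from 2.59% to 6.79%.

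Adcy10 codes for the soluble adenylyl cyclase, which bicarbonate and not G proteins activates. It was listed at 0 at D0 and at 8.03 FPKM (737 fragments) at D7, at least 289-fold above the value of 3 fragments in the D0 library. With it included, Adcy10 would make up 11.3% ± 0.389 (counting SE) of all cyclase transcripts at D7. Adcy10 was 1 of 1012 genes listed at 0 at D0 only, of which 78 reached 1 FPKM at D7 and 29 reached at least its level. The next coding gene upstream on the same strand, Mpc2 (a mitochondrial pyruvate carrier subunit), ends 3968 bases away and rose from 41.0 to 569 FPKM, a ratio of 13.9 (12.9 to 15.0). Whether reads from beyond the end of Mpc2 entered the value of Adcy10 was not tested.

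**Figure D3:**
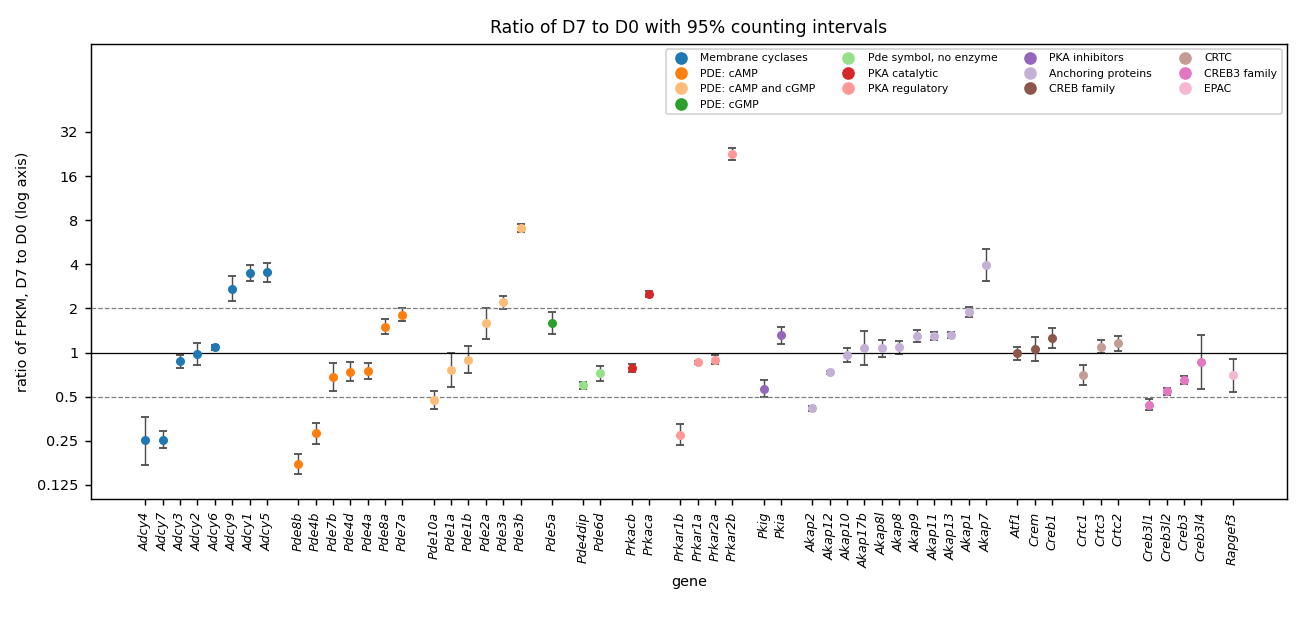
Ratio of FPKM at D7 to D0 on a log axis for the 54 genes with a ratio and at least 1 FPKM in a library, coloured by role, with 95% counting intervals and dashed lines at 2.0 and 0.5. The 8 genes above the upper line run from Pde3a at 2.20 to Prkar2b at 22.7, and the 8 below the lower line from Pde10a at 0.475 to Pde8b at 0.175.

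Anchoring proteins bind the regulatory dimer of PKA, and of 16 Akap genes 14 had a ratio. Of these 14, 1 rose and 1 fell, or 7.14% each, beside 15.5% and 11.4% of all genes. Akap7 (AKAP18, which tethers PKA at membranes) rose from 2.10 to 8.32 FPKM, a ratio of 3.95 (3.10 to 5.09). Akap2 fell from 55.0 to 22.9 FPKM, a ratio of 0.416 (0.399 to 0.435). Akap2 shares 6891 exonic bases on the same strand with the annotated gene Pakap, so its value cannot be told apart from that of Pakap.

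Akap12 (gravin), a large scaffold that also binds β-adrenergic receptors, had the most transcripts of the class in both libraries. It was at 97.3 FPKM at D0 and 71.4 FPKM at D7, a ratio of 0.733 (0.713 to 0.754), or 43.8% and 37.4% of the class. Akap1, which anchors PKA at the outer mitochondrial membrane, was at 14.0 and 26.5 FPKM, a ratio of 1.89 (1.75 to 2.04), just under the threshold, and went from 6.30% ± 0.184 (counting SE) to 13.9% ± 0.304 of the class.

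The other anchoring genes above 1 FPKM differed little between the libraries. Akap13 was at 9.55 and 12.6 FPKM (ratio 1.32, 1.25 to 1.39), Akap11 at 9.14 and 11.8 FPKM (ratio 1.30, 1.21 to 1.38), and Akap9 at 3.27 and 4.23 FPKM (ratio 1.29, 1.18 to 1.42). Akap8 was at 10.9 and 11.8 FPKM (ratio 1.08, 0.981 to 1.20) and its neighbour Akap8l at 10.9 and 11.7 FPKM (ratio 1.07, 0.935 to 1.23), both known as nuclear proteins. Akap10 was at 8.69 and 8.38 FPKM (ratio 0.964, 0.861 to 1.08) and Akap17b at 0.959 and 1.03 FPKM (ratio 1.07, 0.819 to 1.40). Akap3, Akap5 and Akap6 were under 0.15 FPKM, and Akap4 and Akap14 were listed at 0 in both libraries. The sum of the class was 222 FPKM at D0 and 191 FPKM at D7.

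None of the 4 CREB factors or 3 CRTC coactivators passed 2.0-fold, beside 31.7% of all genes in either direction. Atf1 was the most abundant of the CREB factors, at 17.1 FPKM at D0 and 16.9 FPKM at D7, a ratio of 0.989 (0.892 to 1.10). Crem was at 4.68 and 4.94 FPKM, a ratio of 1.06 (0.873 to 1.28), and Creb1 at 3.02 and 3.80 FPKM, a ratio of 1.26 (1.08 to 1.47). Creb5 was at 0.242 and 0.264 FPKM.

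The CRTC proteins enter the nucleus when PKA blocks the kinases that hold them in the cytoplasm. Crtc2 was at 10.3 and 11.9 FPKM, a ratio of 1.16 (1.03 to 1.31), Crtc3 at 6.78 and 7.44 FPKM, a ratio of 1.10 (0.986 to 1.22), and Crtc1 at 3.47 and 2.44 FPKM, a ratio of 0.705 (0.599 to 0.827). Over the 4 CREB genes the sum was 25.1 FPKM at D0 and 25.9 FPKM at D7, and over the 3 CRTC genes 20.5 and 21.8 FPKM.

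The CREB3 factors share a name with CREB but are released from membranes by cleavage and serve secretion. Creb3l1, known to act on collagen genes, fell from 40.9 to 18.1 FPKM, a ratio of 0.442 (0.407 to 0.480). Creb3l2 was at 27.3 and 14.9 FPKM, a ratio of 0.544 (0.515 to 0.575), and Creb3 at 70.9 and 46.3 FPKM, a ratio of 0.653 (0.612 to 0.697). Creb3l4 was at 1.90 and 1.64 FPKM, a ratio of 0.863 (0.562 to 1.31), and Creb3l3 at 0.177 and 0.235 FPKM. The family summed to 141 FPKM at D0 and 81.1 FPKM at D7.

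Of the Rap exchange factors that cAMP activates directly, Rapgef3 (EPAC1) was at 2.09 and 1.47 FPKM, a ratio of 0.703 (0.540 to 0.911), and Rapgef4 (EPAC2) at 0.120 and 0.0287 FPKM. Exons of 21 of the 74 genes overlap those of another annotated gene. Among the genes that rose or fell, this holds, besides Akap2, for Pde8b (447 bases, opposite strand), Pde3a (741 bases, opposite strand), Akap7 (47 bases, opposite strand) and Prkar1b (341 bases, same strand). Whether the counting used strand is not given in the sources used here, so reads of such pairs cannot be told apart.

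Around these genes, 10 further lists of the pathway were described in the same way. Of 21 receptor genes of adipocytes with a ratio, 13 were past 2.0-fold higher, or 61.9%, beside 18.5% of all genes. Another 4 were lower, or 19.0%, beside 13.2% of all genes. The interval excluded 1 for 10 of the 13, and 6 more receptors were listed at 0 at D0 only. Adrb3, the β3-adrenergic receptor of adipocytes, rose from 0.125 to 59.7 FPKM, a ratio of 479 (232 to 1192, from 7 and 2848 fragments). Adrb1 was at 0.0201 and 0.640 FPKM, from 1 and 32 fragments, a ratio of 31.8 (5.31 to 1294). The melanocortin receptor Mc5r rose from 0.0474 to 14.9 FPKM and the parathyroid hormone receptor Pth1r from 6.65 to 14.4 FPKM, while Adora2b, an adenosine receptor that couples to Gs, fell from 10.3 to 1.02 FPKM. Of the receptors listed at 0 at D0, the Gi-coupled adenosine receptor Adora1 was at 25.1 FPKM and the corticotropin receptor Mc2r at 9.60 FPKM at D7, both named after their values were seen.

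The G protein itself barely differed. Gnas, for the α subunit of Gs, was at 1058 FPKM at D0 and 1024 FPKM at D7, a ratio of 0.968 (0.958 to 0.978). Of 25 G protein subunits with a ratio, 4 were higher (16.0%, beside 18.5% of all genes) and 2 lower (8.0%, beside 13.2%). Among them, Gnai1, for an inhibitory α subunit, rose from 9.46 to 39.1 FPKM, and Gng11 fell from 37.1 to 15.2 FPKM. Of 16 receptor kinases, arrestins and RGS proteins with a ratio, which dampen receptor signals, 5 were higher and 2 lower. These were 31.25% and 12.5%, beside 18.5% and 13.2% of all genes. Rgs2 rose from 1.66 to 38.8 FPKM and Arrb1 from 2.53 to 9.95 FPKM, and Rgs16 fell from 70.6 to 16.3 FPKM and Rgs12 from 23.3 to 6.30 FPKM.

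Below PKA, the lists moved unequally. Of the PKA substrates and their partners in lipolysis, 7 of 7 with a ratio were higher, beside 18.5% of all genes. Lipe, Plin1 and Cidec of this list are also among the adipocyte markers above. Pnpla2 (the triglyceride lipase ATGL) rose from 9.19 to 979 FPKM and G0s2 (the inhibitor of ATGL) from 6.94 to 379 FPKM. Plin1 (a coat protein of the lipid droplet) rose from 0.0554 (2 fragments) to 324 FPKM and Lipe (hormone-sensitive lipase) from 2.65 to 281 FPKM. Of 18 genes with a ratio that are known to be induced by cAMP through CREB, 5 were higher and 6 lower. These were 27.8% and 33.3%, beside 18.5% and 13.2% of all genes, and the median log2 ratio of the list was −0.23. Rgs2 was among those that rose, and Nr4a1 fell from 30.7 to 3.44 FPKM, Junb from 37.9 to 9.74 FPKM and Gadd45b from 28.3 to 11.9 FPKM. The others that rose, named after their values were seen, were Per1 (6.13 to 15.2 FPKM), Ppargc1a (0.0370 to 4.41 FPKM), Dio2 (0.380 to 2.11 FPKM) and Pck1 (0.0191 to 0.652 FPKM, from 1 and 30 fragments), and Ucp1 was listed at 0 at D0 and at 4.57 FPKM at D7. Of 16 CREB coactivators, salt-inducible kinases and CRTC regulators, 3 were higher and none lower. The higher ones were 18.75%, near the 18.5% of all genes, while 13.2% of all genes were lower. Sik2, a kinase that PKA inhibits and that keeps CRTC proteins in the cytoplasm, rose from 5.44 to 60.5 FPKM, a ratio of 11.1 (10.0 to 12.4), and Crebl2 from 3.60 to 8.79 FPKM.

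Anchoring proteins not named Akap and other cAMP effectors had genes past 2.0-fold in both directions. Of 17 such anchors with a ratio, 5 were higher (29.4%, beside 18.5% of all genes) and 2 lower (11.8%, beside 13.2%). Opa1, the mitochondrial fusion protein that also anchors PKA at lipid droplets, rose from 10.6 to 29.3 FPKM, a ratio of 2.77 (2.54 to 3.04), and Ckap4 fell from 161 to 44.3 FPKM. Of 15 other effectors and exporters 4 were higher (26.7%) and 2 lower (13.3%), led by the cyclic nucleotide gated channel gene Hcn2, which rose from 0.772 to 4.34 FPKM.

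**Figure D4:**
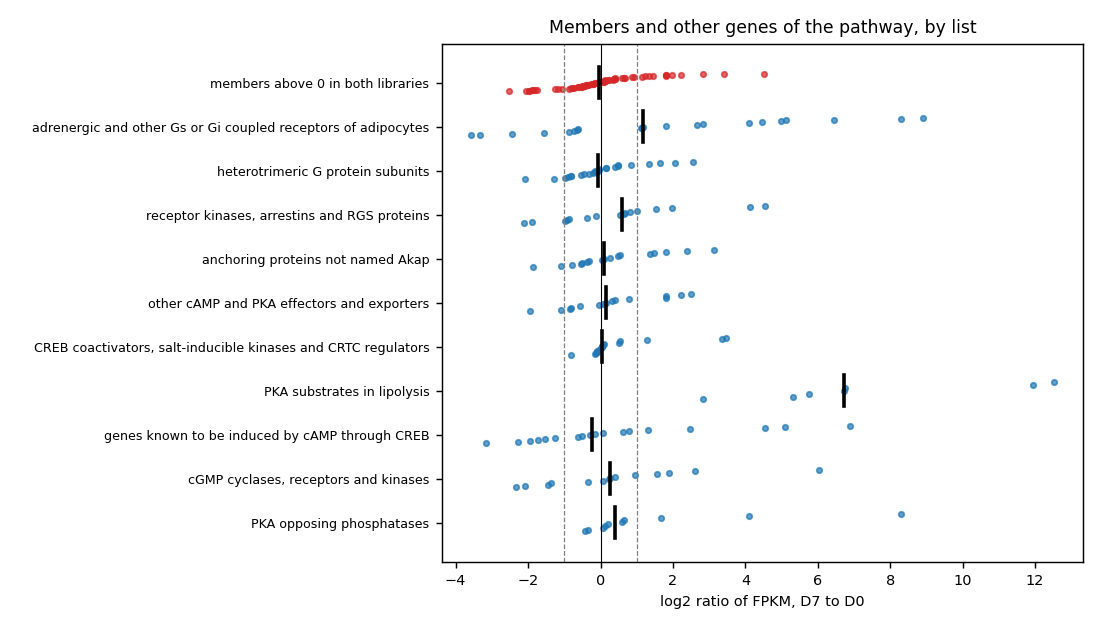
Log2 ratio of FPKM, D7 to D0, of the 68 cAMP genes above 0 in both libraries and of the genes of 10 further pathway lists, 1 point per gene, with a vertical bar at each median and dashed lines at 2.0-fold. The median of the cAMP genes is −0.04, that of the CREB-induced genes −0.23, that of the receptors 1.18 and that of the lipolysis list 6.73.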

How the data were processed

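Per the labels, RNA-Seq was run on 1 library of brown preadipocytes (D0) and 1 of brown adipocytes (D7). The authors removed reads with adaptors, low-quality bases or duplicates and reads of rRNA, aligned the rest to mm10 with SOAP2 (the submitters' processing notes name Bowtie2), and the deposited table holds an FPKM per gene for each library. GeneSpring is named in the methods beside FPKM and changed genes. The libraries were made with degradation of the second strand.

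Of 27324 rows, 3963 without values were left out. The ratio of D7 to D0 was taken from the deposited FPKM for genes above 0 in both libraries, without pseudocount or rescaling, and called at 2.0-fold, the threshold of the study's methods. No test was possible. Fragments were recovered from 602 single-exon genes of at least 600 bases, where every low value (20 fragments or fewer, 79 at D0, 90 at D7) was whole within 0.1. Other genes used the length of the named transcript (70 of the 74) or of the longest coding transcript (4), which makes their fragments approximate. The 95% intervals on them are of the exact Clopper-Pearson kind. A value of 3 fragments was the limit for genes listed at 0. The calculation was tested on simulated data.

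Values are given for each of the 74 genes with at least 1 FPKM in a library, or past 2.0-fold with an interval that excludes 1, and the others by role. Of each further list at most 4 genes past 2.0-fold are named, by highest FPKM, with Adrb1, Adrb3 and Gnas always. A further gene of this rule is not reported here, and genes named outside it are marked so. The genes, lists and marker sets were chosen with earlier results of these data known, and Rgs2 and Sik1 stand in 2 of the further lists. Cidec, Lipe, Plin1, Cidea, Dio2, Ppargc1a, Ucp1 and Rgs5 stand both in a further list and in a marker set. Gene positions are from GENCODE and promoter windows from RefSeq (GRCm38.p6). Python 3.11.15, pandas 2.3.3 and scipy 1.17.1 were used. Alternatives were a pseudocount of 0.1 or 1, a minimum of 1 FPKM in a library, 4 other scalings, rows summed by symbol, the interval excluding 1, values at or under 3 fragments set to that limit, and the list without cGMP, accessory and CREB3 genes.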

Additional observations from a re-analysis of the deposited data

How the results depend on the processing

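Among the cAMP genes, the 12 higher and 11 lower ones were the same genes under TPM, the upper quartile, centring on the median ratio and rows summed by symbol. The count of lower genes was 7 with a pseudocount of 1, where Rapgef4, Pde10a, Pde11a and Pde9a dropped out. The median log2 ratio of −0.04 turned to 0.0031 when centred on the median ratio. For the 10 further lists, lower genes numbered 22, but 13 with a pseudocount of 1 and 37 with values under 0.01 FPKM set to 0.01 and scaling to the library median, where their median log2 ratio went from 0.14 to -0.046. That scaling lowered the log2 ratio of the typical gene by 0.35, and Prkaca, Pde3a and Pde6g then lay below 2.0-fold, while Creb3l2, Pkig, Pde4dip and Pde4c passed it as lower. Together with Adcy10 and Pde6h, which enter through the value of 0.01 in place of 0, this gave 10 higher and 16 lower cAMP genes. The other alternatives left 8 to 12 higher and 8 to 11 lower cAMP genes. No paired analysis was possible because each stage has 1 library. Depth limits statements on 9 of the 74 genes, which had at most 3 fragments in each library.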

Other observations

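Brown adipocytes also use cGMP. The list of cGMP genes held cGMP cyclases, natriuretic peptides and their receptors, nitric oxide synthases, cGMP kinases and the kinase substrate Vasp. Of 14 with a ratio, 4 were past 2.0-fold higher (28.6%, beside 18.5% of all genes) and 4 lower (28.6%, beside 13.2%). The interval excluded 1 for 4 and 3 of them. Npr1, the guanylyl cyclase receptor of atrial natriuretic peptide, rose from 0.108 to 7.05 FPKM (9 and 500 fragments), a ratio of 65.4 with a 95% counting interval of 34.2 to 144. Npr3, the clearance receptor that removes these peptides, rose from 8.995 to 26.7 FPKM, a ratio of 2.96 (2.78 to 3.16), so that Npr3 stayed above Npr1 in both libraries. Vasp, a cytoskeletal substrate of PKA and cGMP kinase, fell from 87.5 to 33.7 FPKM, and Prkg2, for the type II kinase, from 2.13 to 0.776 FPKM.

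Of 10 genes with a ratio for phosphatase subunits and for proteins that target or inhibit these phosphatases, 3 were higher and none lower. By the same rule, 18.5% of all genes were higher and 13.2% lower. Whether these 10 genes differ from all genes was not tested. Ppp1r1a codes for inhibitor 1 of protein phosphatase 1, which becomes active when PKA phosphorylates it, and it rose from 0.167 to 52.3 FPKM (4 and 1074 fragments), a ratio of 313 (122 to 1152). Ppp1r3c, which targets that phosphatase to glycogen, rose from 1.70 to 28.8 FPKM, a ratio of 17.0 (13.8 to 21.2). Ppp2r1b, a scaffold subunit of protein phosphatase 2A, rose from 14.3 to 45.1 FPKM, a ratio of 3.17 (2.95 to 3.40).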
